A study of Rattus norvegicus with 20 samples.

Results

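Mmel1 (ENSRNOG00000012593), Igsf1 (ENSRNOG00000007600) and Eva1a (ENSRNOG00000007118) are 3 of the 32883 genes listed for rat choroid plexus, the tissue that secretes the cerebrospinal fluid. They were chosen by their TPM in untreated rats, where they were among the strongest differences between obese and lean animals, so that difference is described here without a test. RNA was sequenced from the choroid plexus of 20 female Zucker rats, 1 library per rat, all 16 weeks of age. The untreated cohort held 6 lean rats, heterozygous for the fatty allele of the leptin receptor gene (+/fa), and 6 obese rats, homozygous for it (fa/fa), without any injection. The injected cohort held 4 lean control rats given sesame oil as vehicle (VEH) and 4 obese + TT rats given testosterone propionate in sesame oil, both subcutaneously over the weeks before the tissue was taken. Only obese rats received testosterone and no obese rats received oil alone, so obesity and testosterone cannot be told apart within the injected cohort.

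Mmel1 encodes a membrane-bound and secreted zinc metallopeptidase, a close relative of neprilysin that cleaves small peptides outside the cell. Igsf1 encodes a large immunoglobulin superfamily glycoprotein of the plasma membrane, and loss of the human gene causes an X-linked form of central hypothyroidism. Eva1a encodes a small membrane protein of the endoplasmic reticulum and lysosome that promotes autophagy and programmed cell death. The choroid plexus epithelium surrounds a vascular stroma with fibroblasts, mural cells and macrophages, so bulk RNA of this tissue mixes all of them.

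Levels are given in TPM (transcripts per 1000000), a unit corrected for gene length and read depth from which read numbers cannot be recovered. A library had 14968 to 16860 genes above 0 TPM. Ttr (transthyretin), the carrier protein made in bulk by this epithelium, took 31.2 to 39.3% of the TPM in untreated rats and 25.8 to 30.5% in injected rats. All 10 epithelial markers examined had a named row, and the summed TPM of the 9 other than Ttr was at least 7530 in every rat. Lean control rat 14 had the fewest genes above 0, and a principal component analysis of the injected cohort set it off from the other 7 rats.

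RefSeq holds a promoter for Igsf1 and Eva1a but the table used here has no entry for Mmel1. The sequences are shown for the place where transcription of both genes begins, as the 250 bases before the start in the build GRCr8, which is not the build of the deposited files (Rnor_6.0). Igsf1 lies at chrX:133962963-133963212 on the minus strand and Eva1a at chr4:116151345-116151594 on the plus strand. Both are written 5′ to 3′ along the gene, and capitals mark the letters CACGTG.
Igsf1: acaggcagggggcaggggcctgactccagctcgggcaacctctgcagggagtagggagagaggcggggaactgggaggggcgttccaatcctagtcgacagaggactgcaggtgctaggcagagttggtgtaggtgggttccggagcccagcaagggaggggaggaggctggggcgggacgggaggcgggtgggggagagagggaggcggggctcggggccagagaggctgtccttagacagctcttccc
Eva1a: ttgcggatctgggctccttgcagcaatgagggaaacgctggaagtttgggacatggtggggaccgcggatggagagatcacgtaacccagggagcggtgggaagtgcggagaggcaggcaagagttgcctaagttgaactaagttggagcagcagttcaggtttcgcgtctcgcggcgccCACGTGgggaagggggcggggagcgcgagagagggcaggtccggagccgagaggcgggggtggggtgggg

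Both windows were rich in G and C, at 68.0% for Igsf1 and 64.4% for Eva1a, where the median of 33469 rat promoters was 51.2%. Both strands were searched for AGAACA, the short element bound by androgen and glucocorticoid receptors, for TTCNNNGAA, bound by STAT factors, for AGGTCA, bound by many nuclear receptors, and for the E-box CACGTG. Only CACGTG was found, in Eva1a at positions -70 to -65 from the start, and 5.59% of all promoters held it. AGAACA was in 17.5%, TTCNNNGAA in 7.67% and AGGTCA in 14.1% of all promoters. CACGTG reads the same on both strands, and none of the motif matches overlapped because there was only 1. A match of letters is no evidence that a factor binds there.

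In the untreated cohort, Mmel1 and Eva1a were lower and Igsf1 was higher in the obese rats, which is what the choice of the genes fixed. Mmel1 lay between 4.98 and 6.62 TPM in lean rats (median 5.50) and between 2.40 and 3.83 TPM in obese rats (median 3.35). Igsf1 lay between 56.83 and 68.5 TPM in lean rats (median 65.4) and between 80.38 and 103.37 TPM in obese rats (median 85.8). Eva1a lay between 4.50 and 7.91 TPM in lean rats (median 6.96) and between 1.95 and 4.30 TPM in obese rats (median 3.30).

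None of the 3 genes overlapped between the 6 lean and 6 obese rats, a property shared by 0.54% of the 15176 genes tested, 0.297% higher and 0.244% lower in obese rats. Mmel1 averaged 5.62 ± 0.643 TPM (SD, n = 6) in the lean group and 3.23 ± 0.551 TPM (SD, n = 6) in the obese group. Igsf1 averaged 64.8 ± 4.13 TPM (SD, n = 6) in the lean group and 88.6 ± 9.01 TPM (SD, n = 6) in the obese group. Eva1a averaged 6.52 ± 1.47 TPM (SD, n = 6) in the lean group and 3.22 ± 0.772 TPM (SD, n = 6) in the obese group. Eva1a thus had the greatest relative distance of the 3 means (-50.6%), before Mmel1 (-42.6%) and Igsf1 (36.7%), and also the greatest spread within groups, with coefficients of variation of 22.6% in lean and 24.0% in obese rats.

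On the scale of log2(TPM + 0.1), the fold change from lean to obese was -0.79 for Mmel1 (standard error 0.12), 0.45 for Igsf1 (standard error 0.07) and -1.0 for Eva1a (standard error 0.19). The pseudocount of 0.1 makes fold changes of low genes somewhat smaller than their ratio of TPM. In the order of all genes by the p-value of that comparison, Mmel1 was at place 1, Igsf1 at place 2 and Eva1a at place 9. The gene at place 4, RGD1561113, had a log2 fold change of 0.92 (standard error 0.15), the monoamine transporter gene Slc29a4 at place 5 had -0.55 (standard error 0.09), and LOC100910978 at place 6 had -0.37 (standard error 0.06). Directly after Eva1a came Bicdl1, which encodes a dynein adaptor (log2 fold change 0.62), Mpzl2, which encodes a cell adhesion molecule (-0.64), and AY172581.24 (-0.78). The gene at place 3 and those at places 7 and 8 are not named in the tables used here.

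The question put to the injected cohort was whether the 3 differences were also present in 8 rats that had no part in choosing the genes, when the obese rats had received testosterone. Igsf1 was higher in obese + TT than in lean control rats in 15 of the 16 pairs of rats, Mmel1 was lower in 13 of 16, and Eva1a was not lower in the obese + TT rats on average. None of the 3 had an adjusted p under 0.05 in limma, nor did any of the 15259 genes tested (0.0% called). That adjustment was over all genes tested, and no adjustment over the 3 genes alone was made. The authors of the study, with DESeq2 on gene counts, did call genes here and in the untreated cohort, so the absence of calls holds for limma on TPM. At an unadjusted p under 0.05 in limma the comparison held 648 higher genes (4.25%) and 486 lower genes (3.19%). Groups of rats did not overlap in 4.02% of all genes, 2.37% higher and 1.66% lower with obesity and testosterone, and none of the 3 genes was among them.

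**Figure D1:**
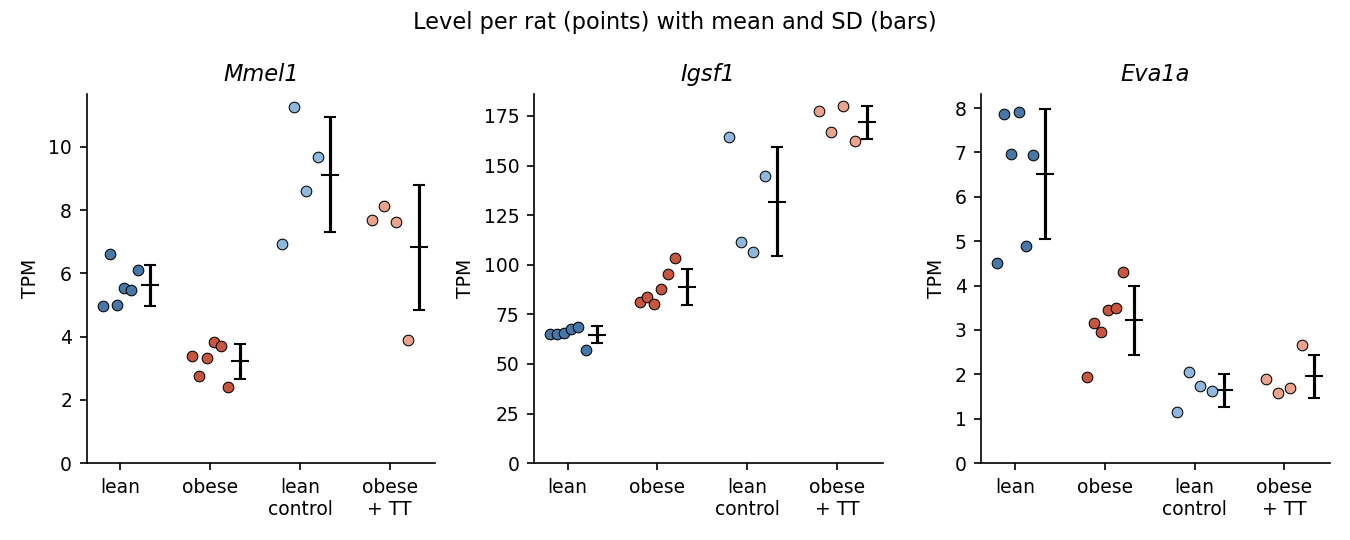
Level in TPM of Mmel1, Igsf1 and Eva1a (vertical axes, each starting at 0) in each of the 20 rats, with points for rats in the order of their numbers and bars for the mean and SD of a group. The lean and obese points do not overlap for any gene, while the lean control and obese + TT points overlap for all 3, and obese + TT rat 20 lies low for Mmel1 at 3.88 TPM.

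Igsf1 was at 164.15, 111.57, 106.33 and 144.56 TPM in lean control rats 13, 14, 15 and 16. It was at 177.72, 167.1, 179.86 and 162.59 TPM in obese + TT rats 17, 18, 19 and 20. The obese + TT rats lay close together and the lean control rats were spread widely, and the single overlap was lean control rat 13, which was above obese + TT rat 20.

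Igsf1 averaged 131.7 ± 27.5 TPM (SD, n = 4) in the lean control group and 171.8 ± 8.31 TPM (SD, n = 4) in the obese + TT group, a difference of 30.5%. Its log2 fold change was 0.41 (standard error 0.13, 95% interval 0.12 to 0.69). The adjusted p-value from limma was 0.575, and the exact two-sided permutation test gave p = 0.0571, where 4 rats against 4 cannot give less than 0.0286. Among the 3, Igsf1 alone was under an unadjusted p of 0.05 in limma (0.0101), at place 267 of all genes tested. Its log2 fold change remained between 0.31 and 0.52 when each rat was left out in turn, and the lowest adjusted p of these fits, 0.135, came without lean control rat 13.

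Mmel1 was at 6.94, 11.24, 8.6 and 9.68 TPM in lean control rats 13, 14, 15 and 16. It was at 7.69, 8.12, 7.62 and 3.88 TPM in obese + TT rats 17, 18, 19 and 20. Rat 20 was far below the other obese + TT rats, lean control rat 13 was below those 3, and lean control rat 14, set off from the others across all genes, was the highest.

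Mmel1 averaged 9.12 ± 1.81 TPM (SD, n = 4) in the lean control group and 6.83 ± 1.98 TPM (SD, n = 4) in the obese + TT group, a difference of -25.1%. Its log2 fold change was -0.45 (standard error 0.24, 95% interval -0.98 to 0.09). The adjusted p-value from limma was 0.723 and the exact two-sided permutation test gave p = 0.171. Without obese + TT rat 20 the log2 fold change was -0.20, and without lean control rat 13 it was -0.57. The interval holds 0 as well as the distance of -0.79 seen in the untreated rats.

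Eva1a was at 1.16, 2.05, 1.74 and 1.62 TPM in lean control rats 13, 14, 15 and 16. It was at 1.9, 1.58, 1.69 and 2.66 TPM in obese + TT rats 17, 18, 19 and 20. Of these 8 rats, 6 were below the lowest untreated obese rat, and 3 of the 4 obese + TT rats fell within the range of the lean control rats.

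Eva1a averaged 1.64 ± 0.369 TPM (SD, n = 4) in the lean control group and 1.96 ± 0.487 TPM (SD, n = 4) in the obese + TT group. Its log2 fold change of 0.24 (standard error 0.23, 95% interval -0.27 to 0.74) had the opposite sign to that in the untreated cohort. The adjusted p-value from limma was 0.842 and the exact two-sided permutation test gave p = 0.429. The value was 0.09 both without lean control rat 13 and without obese + TT rat 20. The interval does not reach the distance of -1.0 seen in the untreated rats. That distance chose the gene and had its own interval of -1.40 to -0.60, so this is a description and no test. Low levels in the injected rats (1.16 to 2.66 TPM) with unknown depth limit it further.

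With all 20 libraries fitted together, the log2 fold change of the injected cohort minus that of the untreated cohort was 0.35 for Mmel1 (95% interval -0.19 to 0.89), whose fold change was thus nearer to 0 in the injected rats. For Igsf1 it was -0.04 (95% interval -0.34 to 0.25). For Eva1a it was 1.24 (95% interval 0.61 to 1.86). These 3 values are given without a test because the untreated rats in each chose the genes, and a gene chosen for a large distance tends to show a smaller one in other rats.

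**Figure D2:**
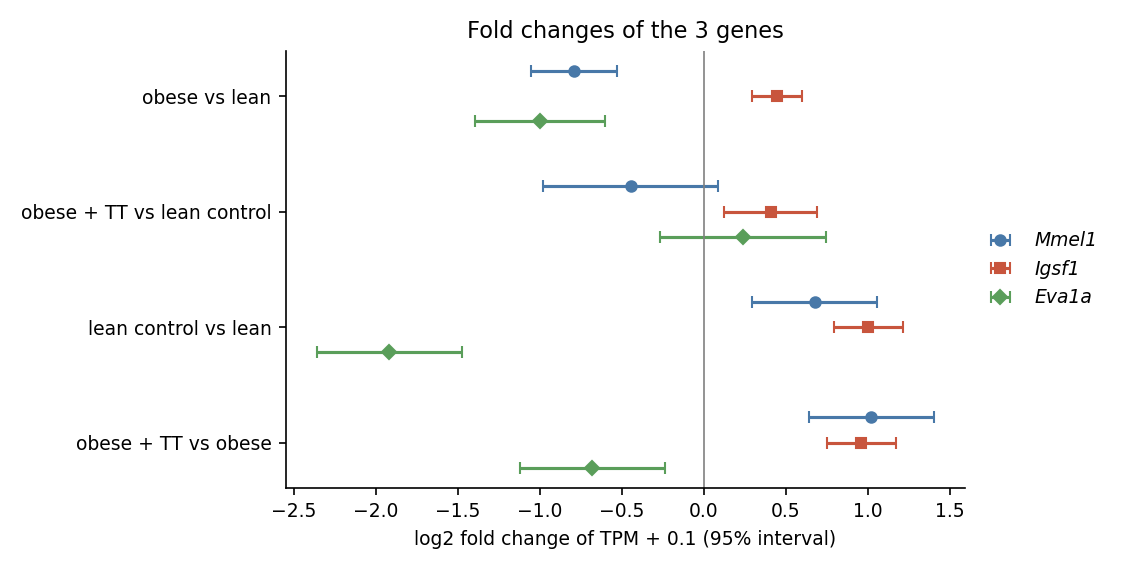
Log2 fold change of TPM + 0.1 with its 95% interval (horizontal axis) for Mmel1, Igsf1 and Eva1a in 4 pairs of groups (rows). Igsf1 lies above 0 in all 4 rows, Mmel1 is at -0.79 in the untreated and -0.45 in the injected cohort, and Eva1a moves from -1.0 to 0.24.

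Markers of other cells were compared between the same groups. In the untreated cohort the summed TPM of all 8 marker lists with a named gene overlapped between lean and obese rats. In the injected cohort 6 of the 8 overlapped. Among these, the sum of 4 of 5 erythroid markers, Hba-a1, Hba-a2, Hbb and Slc4a1, was 2168 to 5768 TPM in lean control (median 2980) and 4799 to 8388 TPM in obese + TT rats (median 6382), and in untreated rats it was 3105 to 5471 TPM with the lean (median 3950) and 4052 to 7019 TPM with the obese phenotype (median 5406). The sum of Rgs5 and Myh11, 2 of 5 mural cell markers, was 9.76 to 17.4 TPM in lean control and 8.09 to 9.33 TPM in obese + TT rats. Gja1, 1 of 5 astrocyte markers, was 1.21 to 2.47 TPM in lean control and 2.94 to 3.39 TPM in obese + TT rats. The part of these cells in the values of the 3 genes was not tested. No marker of neurons, oligodendrocytes or the anterior pituitary had a named row, so these cells were not analysed here.

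The mean levels of all 3 genes differed between the cohorts, and only for Igsf1 did no rat of one cohort overlap with the other. Averaged over lean and obese rats, Mmel1 and Igsf1 were higher and Eva1a was lower in the injected rats. Igsf1 lay between 106.33 and 179.86 TPM in the 8 injected rats and between 56.83 and 103.37 TPM in the 12 untreated rats, without overlap, as was the case for 25.1% of all genes in the higher direction. For Mmel1, 7 of the 8 injected rats were above all untreated rats, the exception being obese + TT rat 20. For Eva1a, 6 of the 8 injected rats were below all untreated rats.

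The log2 fold change from untreated to injected rats was 0.85 for Mmel1 (standard error 0.13, adjusted p = 6.71e-06 in limma). It was 0.98 for Igsf1 (standard error 0.07, adjusted p = 1.9e-10 in limma). It was -1.30 for Eva1a (standard error 0.15, adjusted p = 1.43e-07 in limma). All 3 were called, but so were 69.6% of the 15406 genes tested, 48.7% higher and 20.8% lower, so a call by itself says little about these genes. The untreated rats that chose the genes enter this comparison, and the choice favoured a small spread within their groups. A smaller spread makes these standard errors and p-values smaller. The median of all genes moved by 0.24 in the same direction as Mmel1 and Igsf1. With each library centred on its median, which turned the split of calls from 7509 higher of 10718 to 4165 higher of 10828, the fold changes were 0.45, 0.59 and -1.69 for Mmel1, Igsf1 and Eva1a, and all 3 were still called.

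**Figure D3:**
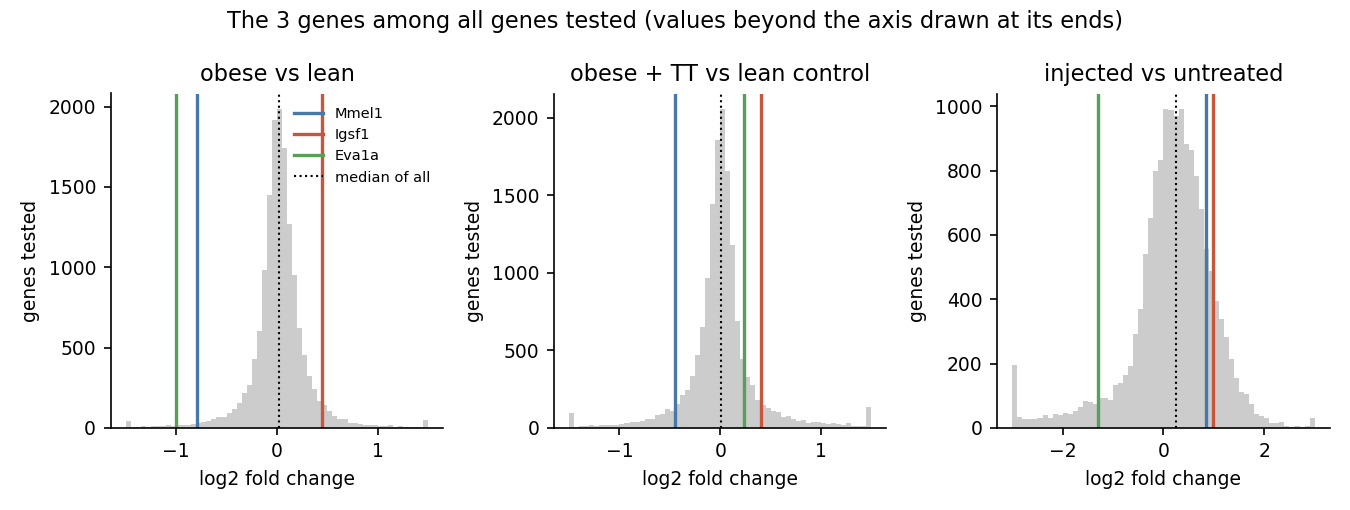
Number of genes tested (vertical axis) by log2 fold change (horizontal axis) in the untreated, the injected and the between-cohort comparison, with coloured lines for Mmel1, Igsf1 and Eva1a and a dotted line for the median of all genes. The between-cohort values are spread most widely, with a median of 0.24, and Eva1a lies in their lower tail at -1.30.

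Within the lean arm, from untreated lean to lean control rats, the mean of Mmel1 differed by 62.2%, that of Igsf1 by 103.2% and that of Eva1a by -74.8%. Within the obese arm, from untreated obese to obese + TT rats, the differences were 111.6% for Mmel1, 93.9% for Igsf1 and -39.2% for Eva1a. The groups did not overlap in 5 of these 6 cases, and the exception was Eva1a in the obese arm, where obese + TT rat 20 at 2.66 TPM was above obese rat 7 at 1.95 TPM. Over all genes, 44.5% did not overlap in the lean arm (33.9% higher, 10.7% lower) and 45.7% in the obese arm (34.0% higher, 11.7% lower). On the log2 scale Eva1a differed by -1.92 (standard error 0.21) in the lean and by -0.68 (standard error 0.21) in the obese arm, as a description, since both arms hold rats that chose the genes.

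The order of the 4 groups differed between the genes. Mmel1 was highest in lean control, then obese + TT, lean and obese rats, and of these neighbours only lean and obese rats did not overlap. Igsf1 was highest in obese + TT, then lean control, obese and lean rats, and only the first pair overlapped. For lean control against obese rats the share over all genes was not computed. Between untreated and injected rats of the same arm, lack of overlap was common, at 44.5% and 45.7% of all genes. Eva1a was highest in lean, then obese, obese + TT and lean control rats, and only the first pair did not overlap. Among the genes above 0 TPM in a group, Igsf1 was above 92.3% in lean and 96.9% in obese + TT rats, whereas Mmel1 stayed near the middle, above 46.9 to 58.9%, and Eva1a went from above 58.5% in lean to above 36.7% in lean control rats.

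Cohort, injection and, for the obese rats, testosterone cannot be told apart in the comparison of injected with untreated rats. Many marker genes differed in that comparison, though not all. The summed TPM of 9 epithelial markers without Ttr was 7530 to 9296 in untreated and 11551 to 13373 in injected rats. Ttr, of the same list and far more abundant, went the other way, from 31.2 to 39.3% of the TPM in untreated to 25.8 to 30.5% in injected rats. Rgs5 and Myh11 of the mural cells summed to 81.6 to 135.4 TPM in untreated and 8.09 to 17.4 TPM in injected rats. Plvap, 1 of 6 endothelial markers and typical of fenestrated vessels, was 39.95 to 60.3 TPM in untreated and 1.68 to 10.6 TPM in injected rats. The macrophage genes Lyz2 and Cd74, 2 of 7 markers, summed to 414.9 to 546.0 TPM in untreated and 95.2 to 284.2 TPM in injected rats. Col1a1, Dcn and Pdgfra, 3 of 6 fibroblast markers, summed to 106.8 to 150.1 TPM in untreated and 51.1 to 91.0 TPM in injected rats. Gja1 of the astrocytes was 4.79 to 9.12 TPM in untreated and 1.21 to 3.39 TPM in injected rats. Rsph1, 1 of 4 markers of ependyma and cilia, overlapped, at 63.94 to 82.12 TPM in untreated and 60.55 to 85.45 TPM in injected rats. The erythroid sum overlapped too, at 3105 to 7019 TPM in untreated and 2168 to 8388 TPM in injected rats. None of these named markers' sums was at 0 in any rat. In bulk tissue, fewer cells of a type and less RNA per cell cannot be told apart, and the part of these cells in the shift of Mmel1, Igsf1 and Eva1a was not tested.

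The ratio of 2 genes within a library does not change when the whole library is multiplied by 1 factor, as it is by another unit or by centring, though quantile normalization can move it, and 3 ratios among the genes were computed after their values were seen. Igsf1 over Mmel1 lay between 9.29 and 13.1 in lean and between 22.9 and 43.1 in obese rats, apart by the choice of the genes. It was 23.7, 9.93, 12.4 and 14.9 in lean control rats 13, 14, 15 and 16. It was 23.1, 20.6, 23.6 and 41.9 in obese + TT rats 17, 18, 19 and 20. The ratios of the injected rats therefore lay within or near those of the untreated rats of the same phenotype, except in lean control rat 13, whose ratio was among those of the obese rats.

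The mean of this log2 ratio was 0.86 higher in obese + TT than in lean control rats (standard error 0.35; exact two-sided permutation test, p = 0.114, adjusted p = 0.171 over the 3 ratios). In untreated rats the distance was 1.26 (standard error 0.17). Without lean control rat 13 the distance in the injected cohort was 1.10, with p = 0.0286 in the exact permutation test, the smallest that 4 rats against 3 allow. Leaving out any other of the 8 rats gave 0.63 to 0.98, with p from 0.114 to 0.2 in the exact permutation test. The ratio of Eva1a to Mmel1 was 0.71 higher on the log2 scale in obese + TT rats (exact permutation test, p = 0.0571, adjusted p = 0.171) and that of Igsf1 to Eva1a was 0.15 higher (exact permutation test, p = 0.657).

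**Figure D4:**
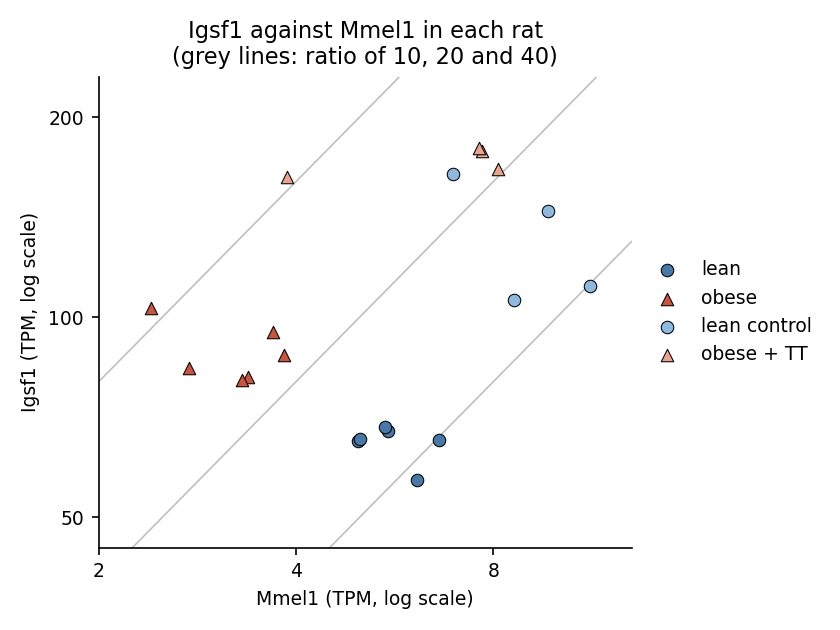
Igsf1 against Mmel1 in each of the 20 rats, both in TPM on log axes, with circles for lean and triangles for obese rats, pale for injected rats, and grey lines at ratios of 10, 20 and 40. The injected rats lie above the untreated ones, obese rats of both cohorts lie above the line of 20, and lean control rat 13 lies with them at a ratio of 23.7.

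The choice of the genes rested in part on how small the spread of each was within the untreated groups, but not on whether 2 genes deviate together, which was compared for the 3 pairs of genes over 20 rats as deviations from the group means. Pearson's r was -0.24 for Mmel1 with Igsf1, -0.13 for Mmel1 with Eva1a and -0.13 for Igsf1 with Eva1a (permutation p = 0.339, 0.615 and 0.638, adjusted p = 0.638 for each). Spearman's rho was -0.19, 0.02 and -0.05 (permutation p = 0.481, 0.945 and 0.838, adjusted p = 0.945 for each). Without the 2 rats farthest from the median of the first gene, r was -0.30, 0.37 and 0.11. Within the untreated rats r was -0.39, -0.02 and 0.40. Within the 8 injected rats r was -0.17, -0.25 and -0.69, and the last had p = 0.0399 in an exact permutation test, adjusted p = 0.12 over the 3 pairs. The genes thus showed no shared variation from rat to rat that passed the test.

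The genes most like each of the 3 were sought among 2568 named genes averaging 1 TPM or more, by Pearson's r of log2(TPM + 0.1) over the 20 libraries after the mean of each cohort was removed. These r hold the distance between obese and lean rats that chose the genes, and they are descriptions. Genes without a name were not compared, and the named ones favour abundant and changed genes, so closer genes may be missing. For Mmel1 the first 5 were Dhrs3, a retinaldehyde reductase (r = 0.84), Slc29a4 (0.79), the transcriptional regulator Hes6 (0.79), Mesp1 (0.75) and Tex264, a receptor for autophagy of the endoplasmic reticulum (0.74). Slc29a4 averaged 57.9 ± 17.3 TPM (SD, n = 4) in the lean control group and 35.7 ± 4.71 TPM (SD, n = 4) in the obese + TT group. Among the 5, Dhrs3 and Slc29a4 had a higher mean in lean control than in lean rats, as Mmel1 had, while Hes6, Mesp1 and Tex264 had a lower one.

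For Igsf1 the first 5 were Ybx3, a nucleic acid binding cold shock protein (0.85), the transcription factor gene Sox13 (0.84), Ehd2, which acts at caveolae (0.84), Cntn3, a contactin of the cell surface (0.83), and Reck, a membrane-anchored inhibitor of matrix metalloproteinases (0.81). Reck had the same order of group means as Igsf1, averaging 41.8 ± 3.16 TPM (SD, n = 6) in lean, 47.9 ± 9.18 TPM (SD, n = 6) in obese, 69.5 ± 12.7 TPM (SD, n = 4) in lean control and 85.9 ± 4.42 TPM (SD, n = 4) in the obese + TT group. Cntn3 shared that order too, at 3.94, 5.13, 7.09 and 8.66 TPM. Ybx3, Sox13 and Ehd2 did not share it. Sox13 and Ehd2 had a lower mean in lean control than in lean rats, and Ybx3 averaged 34.8 TPM in obese and 28.5 TPM in lean control rats.

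For Eva1a the first 5 were the PDZ domain gene Pdzd2 (0.78), Mt-nd1, a mitochondrial subunit of respiratory complex I (0.77), Cdr2 (0.77), AY172581.24 (0.77) and Bmp4, a ligand of the TGF-beta family (0.76). All 5 had a lower mean in obese than in lean rats. None of the 5 had a lower mean in lean control than in lean rats except Mt-nd1, at 6908 ± 668 TPM in lean (SD, n = 6) and 6543 ± 141 TPM in lean control rats (SD, n = 4). Pdzd2, the most alike, went from 6.25 to 23.6 TPM in the lean arm while Eva1a went from 6.52 to 1.64 TPM.

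The EVA1 family has 2 further members, Eva1b and Eva1c, the latter related to a receptor for axon guidance cues in worms. Eva1b lay between 1.59 and 5.72 TPM in lean (median 3.70) and between 5.06 and 7.60 TPM in obese rats (median 5.6), which is the opposite order to Eva1a. Its log2 fold change was 0.68 (standard error 0.24), with an unadjusted p of 0.0129, a threshold of 0.05 that 5.91% of all genes passed in this direction, and an adjusted p of 0.381 in limma. Its levels were 0.79, 0.89, 0.82 and 1.31 TPM in the lean control group and 0.58, 2.54, 2.18 and 0.72 TPM in the obese + TT group. Those groups overlapped, and the fold change was 0.39 on the log2 scale (standard error 0.44, adjusted p = 0.874 in limma).

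Eva1b fell from untreated to injected rats by 1.98 on the log2 scale (standard error 0.25, adjusted p = 4.02e-07 in limma), where 20.8% of all genes were called lower. Like Eva1a, its level in the lean control rats was below that of every lean rat, as for 10.7% of all genes. In the obese arm Eva1b was also lower without overlap, as were 11.7% of all genes, while Eva1a overlapped. Eva1c was low throughout, with means of 1.21 ± 0.208 and 1.01 ± 0.213 TPM (SD, n = 6) in the lean and obese groups and 1.05 ± 0.283 and 0.91 ± 0.194 TPM (SD, n = 4) in the lean control and obese + TT groups. Its difference between the cohorts was -0.17 (standard error 0.14, adjusted p = 0.299 in limma).

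**Figure D5:**
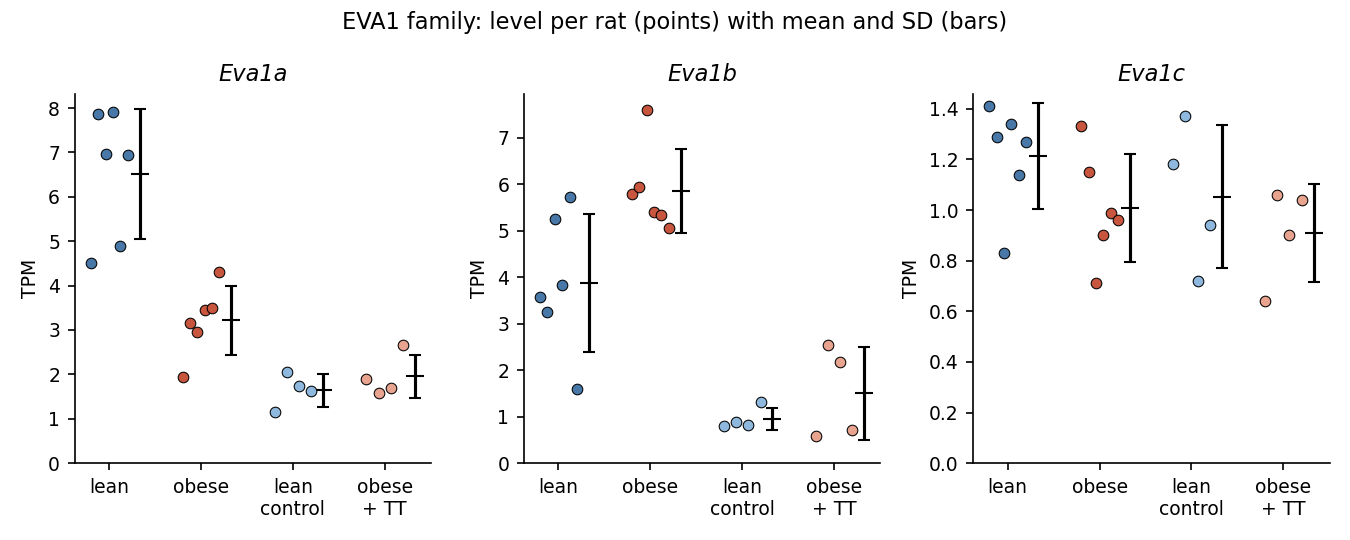
Level in TPM of Eva1a, Eva1b and Eva1c (vertical axes, each starting at 0) in each of the 20 rats, with points for rats and bars for the mean and SD of a group. Eva1a and Eva1b are in opposite order in lean and obese rats and both are low in the injected rats, while Eva1c stays between 0.64 and 1.41 TPM.

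Genes around the 3 by function were examined in lists that are only partly named in the tables used here, so their counts cover part of each list. Those tables favour genes that the study found changed in these same libraries, so a share of the named genes is not comparable with the share over all genes given beside it. Since the scaling of the libraries moves all values between the cohorts, a gene is said below to have risen or fallen between them only where it was called with the same sign in TPM, in FPKM, without Ttr, with median-centred libraries and with quantile normalization. In TPM 69.6% of all genes were called between the cohorts, 48.7% higher and 20.8% lower, so a rise or fall by itself says little. The share of all genes that met this rule under every scaling was not computed.

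Of 18 further peptidases of extracellular peptides, 2 were named, the angiotensin-converting enzyme gene Ace and the carboxypeptidase gene Cpe. Neither had an unadjusted p under 0.05 in either comparison of obese with lean rats. Ace averaged 512.3 TPM in the lean, 520.7 TPM in the obese, 946.3 TPM in the lean control and 1043 TPM in the obese + TT group. It rose from untreated to injected rats by 0.95 on the log2 scale (adjusted p = 3.91e-10 in limma), about as far as Igsf1. Cpe was at 0.14 and turned to -0.25 with median-centred libraries. Mme, Ece1 and Ece2, the nearest relatives of Mmel1 among the peptidases listed, were not analysed here.

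Of 25 small peptide ligands and receptors, which include possible substrates of such peptidases, 5 were named. In the injected cohort 1 of the 5 passed at an unadjusted p under 0.05, a threshold that 4.25% of all genes passed in the same direction, and after adjustment none did. It was Penk, the proenkephalin gene, with means of 0.403 ± 0.337 TPM (SD, n = 4) in the lean control group and 1.76 ± 1.18 TPM (SD, n = 4) in the obese + TT group (adjusted p = 0.594 in limma). From untreated to injected rats the endothelin receptor gene Ednrb rose by 0.89 on the log2 scale, while the receptor subunit gene Ramp1 fell by 1.5 and the apolipoprotein gene Apoe fell by 1.18. Amyloid precursor (App) and Penk turned sign with the scaling.

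Of 13 genes of thyroid hormone transport and action, an axis linked to Igsf1, 4 were named. In untreated rats all 4 had a lower mean log2 level with obesity, 2 of them with an unadjusted p under 0.05, where 3.75% of all genes were lower at that threshold, and none with an adjusted p under 0.05. Slco1c1, a thyroxine transporter, averaged 177.8 ± 23.8 TPM (SD, n = 6) in the lean group and 144.9 ± 16.9 TPM (SD, n = 6) in the obese group (log2 fold change -0.29, adjusted p = 0.321 in limma). Dio2, the deiodinase that makes the active hormone, averaged 1.36 ± 1.01 TPM (SD, n = 6) in the lean group and 0.547 ± 0.490 TPM (SD, n = 6) in the obese group (adjusted p = 0.470 in limma). In the injected cohort 3 of the 4 could be tested and none had an unadjusted p under 0.05. From untreated to injected rats Slco1c1 rose by 0.55 on the log2 scale. Dio2 fell to means of 0.10 TPM in the lean control group and 0.0875 TPM in the obese + TT group, where the pseudocount decides the size of a fold change.

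Of 24 genes of activin, inhibin and TGF-beta signalling, another system with which Igsf1 has been linked, 5 were named. In untreated rats 1 was higher and 2 were lower with obesity at an unadjusted p under 0.05, where 5.91% of all genes were higher and 3.75% lower, and after adjustment none passed (adjusted p from 0.24 to 0.509 for the 3 in limma). The ligand gene Bmp7 averaged 55.0 ± 6.31 TPM (SD, n = 6) in the lean group and 42.6 ± 5.32 TPM (SD, n = 6) in the obese group, Bmp4 averaged 11.3 ± 2.47 TPM (SD, n = 6) and 7.5 ± 1.19 TPM (SD, n = 6), and Tgfb3 averaged 2.23 ± 0.335 TPM (SD, n = 6) and 2.75 ± 0.464 TPM (SD, n = 6). In the injected cohort none had an unadjusted p under 0.05, and their median log2 fold change was -0.07 beside 0.01 over all genes. From untreated to injected rats the ligand genes Tgfb2 (1.19) and Bmp7 (0.74) and the receptor gene Tgfbr2 (0.64) rose and Tgfb3 fell by 0.97 on the log2 scale, while Bmp4 turned sign with the scaling. None of the 10 further genes named Igsf had a named row.

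Of 31 genes of the autophagy machinery, to which Eva1a is linked, 11 were named. None had an unadjusted p under 0.05 in either comparison of obese with lean rats, and their median log2 fold change was 0.02 in the untreated cohort, the same as over all genes, and 0.05 in the injected cohort. From untreated to injected rats Optn, a receptor that brings cargo to the autophagosome, rose by 0.57. The cargo receptor gene Sqstm1 fell by 0.22 on the log2 scale, and Gabarap and Gabarapl2, ubiquitin-like proteins of the autophagosome membrane, fell by 0.33 and 0.14.

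Of 13 genes of apoptosis, 4 were named. In untreated rats 2 of them were higher and 2 lower with obesity. Only 1, Bad, had an unadjusted p under 0.05 in limma, where 5.91% of all genes were higher at that threshold. Bad, which promotes cell death, averaged 51.4 ± 5.35 TPM (SD, n = 6) in the lean group and 60.4 ± 5.96 TPM (SD, n = 6) in the obese group (unadjusted p = 0.0132, adjusted p = 0.381 in limma). In the injected cohort its means were 52.3 ± 5.82 TPM (SD, n = 4) in lean control and 59.8 ± 4.60 TPM (SD, n = 4) in the obese + TT group (adjusted p = 0.671 in limma). From untreated to injected rats the survival gene Bcl2l1 rose by 0.79 and Cycs, the cytochrome c gene, fell by 0.13 on the log2 scale.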

How the data were processed

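Paired-end reads of 20 rat choroid plexus libraries were mapped by the authors with STAR 2.7.9a to Rnor_6.0, and the authors ran DESeq2 on STAR gene counts, which are not used here. The authors deposited TPM and FPKM per gene and rat. RSEM 1.3.3 is named in the submitters' processing notes with no role, and the program that made the TPM and FPKM is not given in the sources used here. TPM summed to 1000000 in each library within rounding. No whole reads could be recovered from the FPKM (in 190 pairs of libraries the fullest bin of ratios held 2.61 to 6.77% of genes), so depth and counting error are unknown.

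Groups came from the sample titles, and each rat was 1 replicate. No library was a duplicate (at most 0.486% identical values in 42 pairs within groups). The test was limma 3.58.1 in R 4.3.3 with a trend in eBayes on log2(TPM + 0.1), with genes averaging under 0.1 TPM left out, on the libraries of one comparison, or on all 20 for the comparison of cohorts, with Benjamini-Hochberg adjustment over all genes tested. It was tested on simulated data with known changes. Exact permutation tests used log2 values per rat, and correlations used 100000 permutations within groups, or all of them for 8 rats. Python 3.11.15, pandas 2.3.3, scipy 1.17.1 and matplotlib 3.10.9 were used.

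The 3 genes and the gene lists were chosen with earlier results of these data known. Further genes were named by rule: the 5 most alike for each gene, the neighbours in the untreated order by p, list genes past the threshold or otherwise with the smallest p in the injected cohort, relatives of the 3 and markers. Symbols came from the study's supplementary tables, which name 2616 of the 32883 identifiers here and favour abundant and changed genes. A member of 1 list is counted but not reported here. Alternatives were another pseudocount, filter, unit, scaling and eBayes option, a fit of all libraries, and each rat left out.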

Additional observations from a re-analysis of the deposited data

Results flagged for a closer look

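The level of each of the 3 genes in each of the 4 groups was examined for 1 rat lying apart from the rest. In 12 such checks 2 rats were found, where chance gives about 1 in 20. Mmel1 was at 3.88 TPM in obese + TT rat 20, the lowest of its group, while the others were between 7.62 and 8.12 TPM, and the gap was 0.882 of the range of the group. Igsf1 was at 56.83 TPM in lean rat 6, below the other lean rats at 65.13 to 68.5 TPM, a gap of 0.711 of the range. The causes were not tested.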

How the results depend on the processing

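No paired analysis was made because the sample labels give no pairing. The rats are numbered from 1 to 20 and no number is shared between groups. For the 3 genes, each of 18 alternatives in the injected cohort, 22 in the untreated cohort and 29 between the cohorts gave the same direction, and the same side of the threshold where there was a test. Alternatives that changed 1 setting gave -0.48 to -0.39 for Mmel1, 0.37 to 0.42 for Igsf1 and 0.16 to 0.26 for Eva1a on the log2 scale in the injected cohort, with adjusted p from 0.135 to 0.941 over all alternatives and genes. Between the cohorts they gave 0.45 to 0.85, 0.59 to 0.98 and -1.69 to -0.999. With 1 rat left out in turn, the ranges in the untreated cohort were -0.84 to -0.71 for Mmel1, 0.40 to 0.47 for Igsf1 and -1.10 to -0.87 for Eva1a. The number of genes called in the injected cohort was 0 but 6 in the fit of all 20 libraries, and 0 to 25 with 1 rat left out, the 25 without lean control rat 13. In the untreated cohort it was 0 but 3 in the fit of all libraries, 1 with FPKM and 1 with median-centred libraries, and 0 to 1 with 1 rat left out. Within-group correlations turned sign without the 2 farthest rats for Mmel1 with Eva1a (0.37) and for Igsf1 with Eva1a (0.11), and in untreated rats alone for Igsf1 with Eva1a (0.40), the cause was not tested, and none passed the threshold. Centring each library or leaving out Ttr changed the share of called genes that were higher between the cohorts from 70.1% to 38.5% and 59.8%, and quantile normalization and FPKM gave 52.8% and 49.2%. Depth is unknown, which limits what the low values of Eva1a in injected rats can show.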
